A study of Mus musculus with 23 samples.

Results

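Transcripts of the T cell receptor (TCR) were counted in RNA from a syngeneic mouse model built on the Nras-mutant melanoma line NIL, which had been exposed to ultraviolet light. There were 23 libraries under 4 treatments. Combination libraries had both trametinib, an inhibitor of the kinase MEK, and BGB-283, an inhibitor of RAF family kinases. Trametinib libraries and BGB-283 libraries had a single drug, and control libraries had no drug. Each treatment was sampled at D4 and at D11, with 3 libraries per treatment and day, except for 2 control libraries at D11. The labels leave unstated what the days are counted from, give no dose, age or sex, and name the sampled tissue as the melanoma line itself. The table holds TCR segments alone, so no marker of tumour or other cells could be checked. Whether the libraries of a group came from different animals is not stated, and p-values therefore measure the spread between these libraries, which may be technical.

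Entries with the same V and J segments and the same CDR3 residues are counted as a clonotype, and its share is its percentage of the counts of its chain in a library. The large alpha chain (TRA) clonotypes were selected on share: all TRA clonotypes with 1% or more of the TRA counts of at least 1 library. They numbered 293 of 29047 TRA clonotypes, or 1.01%, in a table of 64436 TRA and beta chain (TRB) clonotypes. The same limit gave 256 of 35389 TRB clonotypes. Since they were chosen by share of TRA counts, their number, their shares and their largest values are given as a description with no test. Each is named below by its V and J segments, with a number where several large clonotypes use the same pair.

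The TCR of most T cells is a pair of an alpha and a beta chain, each made by joining gene segments during development in the thymus. The alpha chain joins a TRAV segment to a TRAJ segment with no D segment between them, and the join forms the CDR3, the loop that lies closest to the bound peptide. All cells descended from a single T cell carry the same chains, so a clone that has divided contributes many copies of its CDR3 to a library. Some alpha chains with few added bases at the join are made again and again in different cells and animals, and these are called public. Invariant natural killer T (iNKT) cells, which see lipids, use a TRAV11 segment joined to TRAJ18, and mucosal-associated invariant T (MAIT) cells use TRAV1 joined to TRAJ33. The mouse TRA segments lie on chromosome 14: 43 of the 59 V names and 39 of the 39 J names of the large clonotypes matched gene symbols of the RefSeq annotation, and the other V names join copies that were not separated, except for 3 that carry a delta chain alias and had no match.

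The CDR3 of a large clonotype runs from its first residue, a cysteine in all 293, to its last, a phenylalanine in 284 and a tryptophan in 9. The most frequent V and J pair among large clonotypes, TRAV7D-2 joined to TRAJ37, had 11 members. In 9 of the 11 the loop has 14 residues, of which all but the one at position 5, counted from the cysteine, are the same, and position 5 holds 9 different residues in the 9. They reached their highest share in 8 different libraries. The same single position varied in 6 of the 8 members that join TRAV7D-2 to TRAJ5, in 3 of the 5 that join it to TRAJ9, and in 3 of the 5 that join TRAV14-2V14N-2 to TRAJ5. This pattern was not counted among the other TRA clonotypes of these pairs, so it is not shown to be particular to large ones.

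The deepest library, combination D4 replicate 2, had 524431 TRA counts and the shallowest, control D11 replicate 1, had 37504. Listed counts appear to hold several reads per molecule, and dividing each count by 20, rounded up, gave an estimate of 2013 to 28653 TRA molecules per library, which rests on the assumed 20 counts per molecule. A share of 1% had an exact 95% binomial interval of 0.902% to 1.11% in the library with the fewest counts, and of 0.608% to 1.53% there if estimated molecules are the sampling unit. In the library with the most counts the interval was 0.973% to 1.03% over counts and 0.890% to 1.12% over estimated molecules. These intervals cover counting error only. The lowest value listed anywhere is 3 counts, so a clonotype absent from a library is given as listed at 0.

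Large clonotypes made up from 0.407% to 7.92% of the TRA clonotypes of a library and took from 25.5% to 73.0% of its TRA counts. Of the 293, 134 peaked under 2%, 103 between 2% and 5%, 39 between 5% and 10%, and 17 at 10% or more, with a median peak of 2.33%. Among the 17 that reached 10%, 10 were listed in a single library. In RNA of bulk samples a larger share can come from more cells of a clone or from more receptor RNA per cell, and these cannot be told apart.

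In combination libraries at D4 there were 15, 18 and 17 large TRA clonotypes, which summed to 60.4%, 52.4% and 48.5% of TRA counts. At D11 combination libraries held 15, 14 and 12, summing to 47.6%, 57.3% and 65.5%. In trametinib libraries there were 9, 14 and 19 at D4, with sums of 33.0%, 49.9% and 53.6%. Trametinib libraries thus spanned a wide range at D4, with replicate 1 below the other treatments' libraries in number and in sum at that day. At D11 trametinib libraries held 18, 12 and 9 large clonotypes, which took 37.9%, 25.5% and 28.6% of TRA counts. These were the 3 smallest sums among the libraries of D11. In BGB-283 libraries there were 15, 11 and 20 at D4 and 10, 15 and 16 at D11, and the sums were 51.1%, 67.4% and 59.3% at D4 and 59.1%, 53.2% and 73.0% at D11. In control libraries there were 21, 17 and 15 at D4 and 13 and 12 at D11, with sums of 54.5%, 70.5% and 66.5% at D4 and 42.8% and 50.4% at D11. Ranges of the number of large clonotypes overlapped between all 4 treatments.

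Over both days the number averaged 15.2 ± 2.14 in combination (SD, n = 6), 13.5 ± 4.32 in trametinib (SD, n = 6), 14.5 ± 3.62 in BGB-283 (SD, n = 6) and 15.6 ± 3.58 in control libraries (SD, n = 5). The summed share averaged 55.3% ± 7.03, 38.1% ± 11.4, 60.5% ± 8.35 and 56.9% ± 11.4 in combination, trametinib, BGB-283 and control libraries. Distinct clonotypes that reached 1% numbered 85 in combination, 75 in trametinib, 81 in BGB-283 and 76 in control libraries. Of these, 75, 64, 71 and 68 reached 1% under that treatment alone. Most large clonotypes thus reached 1% under a single treatment and, as given below, in a single library. This holds for the 1% limit only, since 122 of the 293 were listed at some share in 2 or more libraries. Within a library, a mean of 49.0% of large and 19.5% of other TRA clonotypes were listed in another library.

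**Figure D1:**
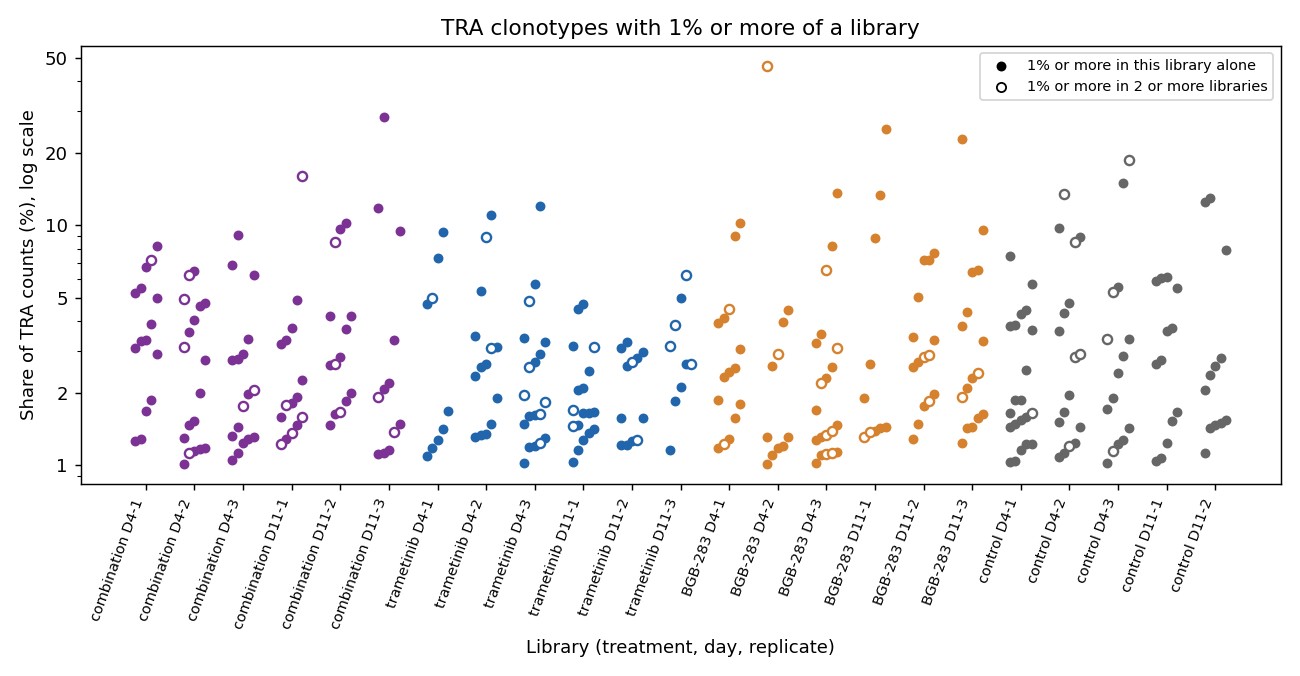
Share of TRA counts (%, log scale) of every TRA clonotype with 1% or more of a library, by library, with combination, trametinib, BGB-283 and control libraries from left to right. Filled points reached 1% in that library alone and open points in 2 or more libraries; the highest point, 46.3% in BGB-283 D4 replicate 2, is an open one.

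The largest TRA clonotype of a library took 8.25%, 6.47% and 9.11% in combination libraries at D4 and 16.2%, 10.2% and 28.4% at D11. The 28.4% belonged to TRAV6D-5V6N-5 TRAJ39 in replicate 3, which was listed in no other library, and the 16.2% to TRAV12D-2 TRAJ48 no. 1 in replicate 1. In trametinib libraries it took 9.39%, 11.03% and 12.1% at D4 and 4.71%, 3.27% and 6.23% at D11. The 3 D11 values of trametinib lay below the 3 D4 values. In BGB-283 libraries it took 10.2%, 46.3% and 13.6% at D4 and 25.4%, 7.71% and 23.01% at D11. The 46.3% was TRAV14-2V14N-2 TRAJ42, with 166287 counts and an exact 95% interval of 46.2% to 46.5% over counts, and the 25.4% and 23.01% were TRAV6D-5V6N-5 TRAJ6 and TRAV14-2V14N-2 TRAJ13. In control libraries it took 7.48%, 13.6% and 18.8% at D4 and 6.11% and 13.03% at D11. The 18.8% was the 15-residue TRAV13D-1 TRAJ5 no. 1.

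The mean of the largest share was 13.1% ± 8.19 in combination, 7.79% ± 3.58 in trametinib, 21.0% ± 14.2 in BGB-283 and 11.8% ± 5.14 in control libraries (SD, n = 6, 6, 6 and 5). The next largest clonotype of BGB-283 D4 replicate 2 took 4.45%, far below its leading clonotype. In 12 of 23 libraries the largest TRA clonotype was listed in that library alone, and in 5 of 23 it used a TRAV7 segment.

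The remaining leaders were as follows. In combination libraries they were TRAV14-3 TRAJ27, TRAV9D-1 TRAJ40 and TRAV8-1V8D-1 TRAJ49 at D4, and TRAV6-6V6D-6 TRAJ48 in D11 replicate 2. In trametinib libraries they were TRAV8-2 TRAJ11, TRAV16D/DV11V16N TRAJ31 and TRAV7D-2 TRAJ11 no. 1 at D4, each listed in that library alone, and TRAV5D-4V5N-4 TRAJ23, TRAV7N-6 TRAJ27 and the recurrent TRAV7D-2 TRAJ37 no. 3 at D11. In BGB-283 libraries they were TRAV14-3 TRAJ17 and TRAV7D-2 TRAJ9 no. 1 in D4 replicates 1 and 3, and TRAV13-2V13N-2 TRAJ22 in D11 replicate 2. In control libraries they were TRAV13N-1 TRAJ9 and the recurrent TRAV7D-2 TRAJ34 no. 1 in D4 replicates 1 and 2, and TRAV15N-1 TRAJ50 and TRAV6N-6 TRAJ2, of 16 and 15 residues, at D11. No V and J pair led in 2 libraries.

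Large clonotypes used 59 of the 143 V names in the table, from 15 TRAV families, and 39 of the 41 TRAJ segments. TRAV7 was the most frequent family with 93 of 293 clonotypes, followed by TRAV14 with 38, TRAV6 with 29, TRAV13 with 21 and TRAV12 with 20. The single V name TRAV7D-2 accounted for 43, or 14.7% of large clonotypes against 6.33% of all TRA clonotypes. Among TRAJ segments, TRAJ37 was used by 19, TRAJ5 and TRAJ23 by 18 each, TRAJ9 by 17 and TRAJ27 by 16. TRAV7D-2 was joined to TRAJ37 in 11, to TRAJ5 in 8 and to TRAJ9 in 5 large clonotypes, and TRAV14-2V14N-2 to TRAJ5 in 5.

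Segment use was compared within each library between large clonotypes and all other TRA clonotypes, each counted once. A two-sided permutation test with random sign changes over the 23 libraries was adjusted by the Benjamini-Hochberg method over all segments. It called 1 of 21 TRAV families higher (4.76%) and 6 lower (28.6%), and 2 of 41 TRAJ segments higher (4.88%) and 9 lower (22%). On simulated data this test often called rare segments in error, so only segments with 5 or more expected large clonotypes are read, a limit chosen after the data were seen. This left 13 TRAV families, of which 1 was higher (7.69%) and 1 lower (7.69%), and 25 TRAJ segments, of which 1 was higher (4%) and 1 lower (4%). A clonotype that reached 1% in several libraries counts in each of them, so the 23 values are not independent. The test treats them as independent, and its p may be too small by an unknown amount. The simulated data drew large clonotypes separately for each library and did not address this.

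TRAV7 segments were used by 34.2% ± 16.3 of large clonotypes and by 22.7% ± 3.49 of other clonotypes (SD, n = 23 libraries). This was 11.5 percentage points more among large clonotypes, with a higher value in 16 of 23 libraries (adjusted p = 0.0078, permutation test). Counted again in each library where they reached 1%, large TRAV7 clonotypes came to 118 over the 23 libraries. From the other clonotypes 77.6 were expected. The distinct large TRAV7 clonotypes numbered 93. TRAV7 clonotypes that reached 1% numbered 27 in combination, 28 in trametinib, 25 in BGB-283 and 27 in control libraries. Every library held at least 1 TRAV7 clonotype at 1% or more. All 93 large TRAV7 clonotypes were also summed in each library, including their shares below 1%. These sums averaged 17.5%, 16.6%, 20.8% and 17.4% of TRA counts in combination, trametinib, BGB-283 and control libraries. Without the clonotypes that reached 1% in 2 or more libraries the TRAV7 difference was 7.62 points and missed the threshold (adjusted p = 0.0504, permutation test).

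TRAJ5 was joined in 6.69% ± 6.64 of large and 2.35% ± 2.16 of other clonotypes (SD, n = 23), a difference of 4.34 points with a higher value in 15 of 23 libraries (adjusted p = 0.005, permutation test). All 18 large TRAJ5 clonotypes have a CDR3 of 15 residues, and the loop length of other TRAJ5 clonotypes was not compared. The leading TRAJ5 clonotype, TRAV13D-1 TRAJ5 no. 1, peaked at 18.8% in control D4 replicate 3, and TRAV7D-2 TRAJ5 no. 1 and no. 2 peaked at 13.4% and 8.84% in BGB-283 D11 replicate 1. The TRAJ5 difference missed the threshold without the recurrent clonotypes (3.06 points, adjusted p = 0.238, permutation test) and with clonotypes weighted by their counts (5.38 points, adjusted p = 0.0584, permutation test).

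TRAJ22 and TRAV3 were rarer among large clonotypes. TRAJ22 was joined in 2.47% ± 4.18 of large and 8.07% ± 1.42 of other clonotypes (SD, n = 23), with 9 large clonotypes where 27.0 were expected and a lower value in 20 of 23 libraries (adjusted p = 0.00025, permutation test). The leading one was TRAV6N-6 TRAJ22 at 8.95% in control D4 replicate 2. TRAV3 was used by 0.531% ± 1.77 of large and 2.798% ± 0.746 of other clonotypes (SD, n = 23), with 2 large clonotypes where 9.45 were expected (adjusted p = 0.00117, permutation test). The 2 were TRAV3N-3 TRAJ9 at 1.15% in combination D4 replicate 2 and the 15-residue TRAV3N-3 TRAJ11 at 1.91% in control D4 replicate 3. TRAJ37 was at 8.13% ± 7.73 of large and 4.19% ± 1.055 of other clonotypes (SD, n = 23). It passed when adjusted over all segments (adjusted p = 0.0464, permutation test). With the limit on expected numbers it did not pass (adjusted p = 0.0623, permutation test).

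**Figure D2:**
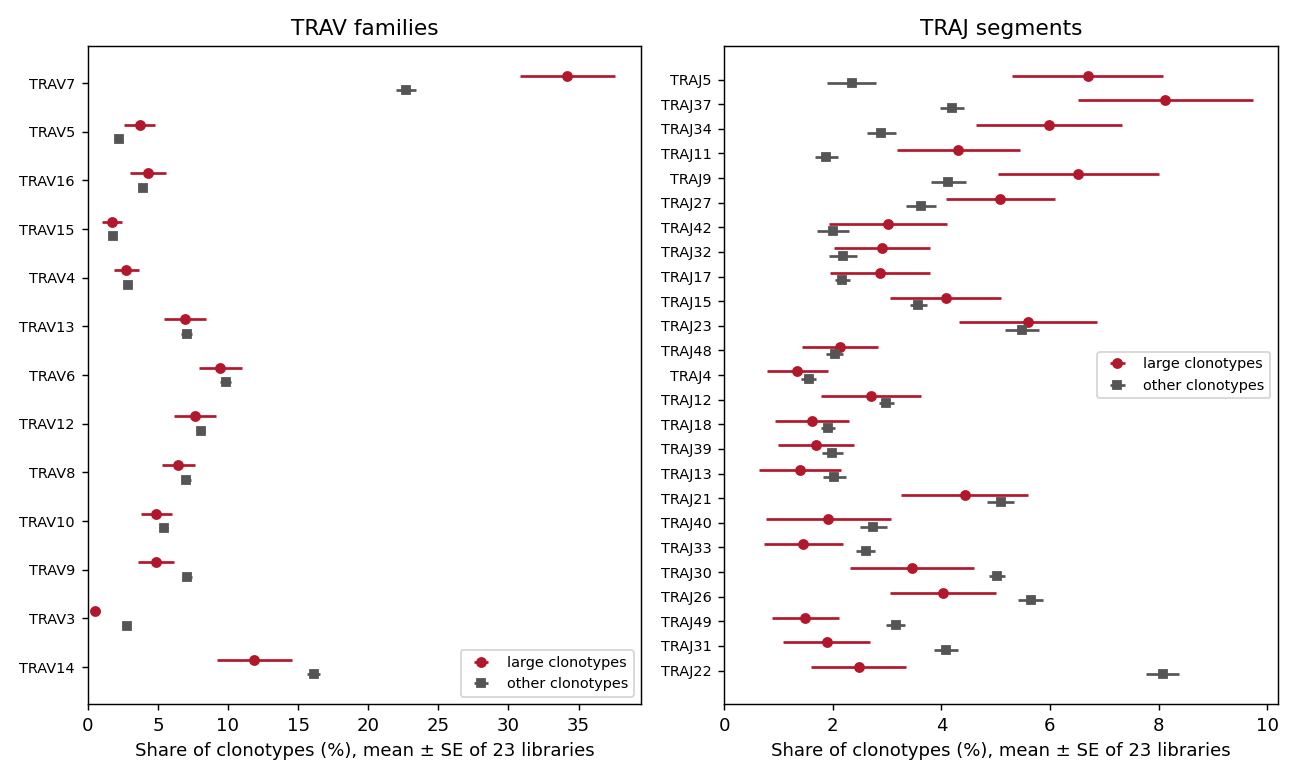
Share of clonotypes (%) that use each TRAV family (left) and TRAJ segment (right) among large (red circles) and other TRA clonotypes (grey squares), as the mean and standard error of 23 libraries, for segments with 5 or more expected large clonotypes. TRAV7 and TRAJ5 are further right among large clonotypes and TRAV3 and TRAJ22 further left.

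CDR3 loops of the 293 large clonotypes were 10 to 17 residues long with a median of 14, and 96 had 14 residues and 74 had 13. Per library their mean length was 13.6 ± 0.367 residues for large and 13.6 ± 0.0542 for other clonotypes (SD, n = 23), a difference of 0.0111 residues that did not pass (adjusted p = 0.876 over 5 features, permutation test). Mean hydropathy of the loop's middle (-1.43 ± 0.174 and -1.41 ± 0.0433, Kyte-Doolittle scale, adjusted p = 0.552, permutation test) did not pass either. Net charge was 0.514 ± 0.243 for large and 0.449 ± 0.0708 for other clonotypes and did not pass (adjusted p = 0.263, permutation test).

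The TRAJ number, which follows the order of the segments along the locus, averaged 24.8 ± 4.502 in large and 27.5 ± 1.23 in other clonotypes (SD, n = 23). It was lower by 2.68 among large clonotypes and lower in 17 of 23 libraries (adjusted p = 0.026, permutation test). The difference missed the threshold with a 2% limit (-3.495, adjusted p = 0.111, permutation test), with weighting by counts (-2.45, adjusted p = 0.56, permutation test) and without recurrent clonotypes (-2.29, adjusted p = 0.141, permutation test).

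Large clonotypes had 1.41 ± 0.199 glycines per loop and other clonotypes 1.31 ± 0.0447 (SD, n = 23), 0.1002 more and higher in 17 of 23 libraries (adjusted p = 0.0394, permutation test). This call was lost when any of 12 libraries was left out, with differences of 0.0867 to 0.101 in these runs. The 12 were combination D4 replicates 1 and 2 and D11 replicate 1, trametinib D4 replicates 1 and 2 and D11 replicates 1 and 3, BGB-283 D4 replicates 1 and 3 and D11 replicates 1 and 3, and control D4 replicate 1. Of these measures of the loop, the TRAJ number and glycine passed and both calls were lost under some alternatives. Tests of the loop also treat the 23 libraries as independent, although recurrent clonotypes count in each library where they reached 1%. Their p may therefore be too small.

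Most large clonotypes were private to a library, though within a library less often so than other TRA clonotypes, as given below. Of the 293, 171 were listed in a single library and 122 in 2 or more, and 274 reached 1% in a single library. The other 19, or 6.48%, reached 1% in 2 or more libraries, against 14 of 256 large TRB clonotypes, or 5.47%. The most libraries in which a clonotype reached 1% was 7 for TRA and 4 for TRB.

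Within a library, 49.0% ± 15.5 of large and 19.5% ± 1.40 of other TRA clonotypes were also listed in another library (SD, n = 23). The share was 29.5 percentage points higher among large clonotypes, and higher in 23 of 23 libraries (p = 1e-05, the smallest that 100000 permutations can give, two-sided permutation test). A clonotype shared between libraries counts in each of them, so the 23 values are not independent. The test treats them as independent, and its p is therefore too small by an unknown amount. It ran from 20% in BGB-283 D4 replicate 1 to 77.8% in trametinib D11 replicate 3 for large clonotypes, and from 17.4% to 23.7% for the others. With the 19 recurrent clonotypes left out the difference was 18.5 points, and against other clonotypes of 100 or more counts it was 18.5 points as well, both past the threshold. In 357 instances a large clonotype was listed below 1% in a library, at a median share of 0.0586% and a median of 144 counts, which was a median of 2.21% of its highest share. The part of this low-level listing in the difference was not tested.

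Of the 19 recurrent clonotypes, 15 reached 1% under 2 or more treatments, 13 at both days, 8 in a control library and 3 within a single group alone. Libraries of the same group shared a clonotype of 1% or more in 12 of 22 pairs (54.5%). Libraries of the same treatment at the other day did so in 6 of 33 pairs (18.2%), those of another treatment at the same day in 27 of 99 (27.3%), and those that differed in both in 29 of 99 (29.3%). Over all 253 pairs of libraries 74 shared a large TRA clonotype (29.2%) and 23 a large TRB clonotype (9.09%). These pairs reuse libraries and rest on the shares that chose the clonotypes, so no test was made.

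TRAV12N-3 TRAJ11 no. 1 reached 1% in the most libraries, 7, and was listed in 14. It took 7.21% and 3.12% in combination D4 replicates 1 and 2, 4.86% in trametinib D4 replicate 3, 1.46% in trametinib D11 replicate 1, 1.85% in BGB-283 D11 replicate 2, and 2.82% and 5.30% in control D4 replicates 2 and 3. At D4 it was thus at 1% or more in 2 of 3 combination, 1 of 3 trametinib and 2 of 3 control libraries, and in no BGB-283 library. It was listed at 0 in combination D11 replicate 1, in trametinib D4 replicate 1 and D11 replicate 3, and both control libraries of D11. BGB-283 D4 replicates 1 and 2 and D11 replicates 1 and 3 also had it at 0.

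TRAV7N-5 TRAJ9 no. 1 reached 1% in 6 libraries and was listed in 14. It took 1.12% in combination D4 replicate 2, 2.70% and 3.13% in trametinib D11 replicates 2 and 3, 2.20% in BGB-283 D4 replicate 3, and 1.65% and 8.49% in control D4 replicates 1 and 2. All 4 treatments held it at 1% or more, and its highest share was in a control library.

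TRAV7D-2 TRAJ37 no. 3 took 6.21% in combination D4 replicate 2, 1.58% in combination D11 replicate 1, 6.23% in trametinib D11 replicate 3, 6.53% in BGB-283 D4 replicate 3 and 2.82% in BGB-283 D11 replicate 2. Among control libraries it was listed in D4 replicate 1 alone, at 0.227%. Its neighbour at position 5, TRAV7D-2 TRAJ37 no. 5, took 4.92% in combination D4 replicate 2, 1.67% in combination D11 replicate 2, 1.24% in trametinib D4 replicate 3 and 3.37% in control D4 replicate 3. The 2 loops thus both passed 1% in combination D4 replicate 2, and elsewhere in different libraries. No. 8, of the same segments, took 1.28% in trametinib D11 replicate 2 and 1.37% in BGB-283 D11 replicate 1.

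TRAV7-5 TRAJ34 no. 1 reached 1% in 5 libraries, all of D4. It took 8.97% and 1.63% in trametinib replicates 2 and 3, 2.91% and 1.38% in BGB-283 replicates 2 and 3, and 2.91% in control replicate 2. At D11 its highest share was 0.874%, in BGB-283 replicate 1.

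TRAV13D-1 TRAJ5 no. 1 was listed in 16 libraries and reached 1% in 4. It took 3.10% and 3.85% in trametinib D11 replicates 1 and 3, 1.92% in BGB-283 D11 replicate 3 and 18.8% in control D4 replicate 3. In the combination libraries it was listed in 5 of 6, at no more than 0.189%. TRAV7D-2 TRAJ5 no. 7 took 2.64% and 1.93% in combination D11 replicates 2 and 3, 2.57% in trametinib D4 replicate 3 and 1.203% in control D4 replicate 2.

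Among clonotypes that reached 1% in 3 libraries, TRAV7D-2 TRAJ34 no. 1 took 1.31% and 2.89% in BGB-283 D11 replicates 1 and 2 and 13.6% in control D4 replicate 2. TRAV7D-3 TRAJ21 no. 2 took 1.77% in combination D4 replicate 3, 1.95% in trametinib D4 replicate 3 and 1.702% in trametinib D11 replicate 1, and was listed in 11 libraries of which none was a control. The other 8 recurrent clonotypes reached 1% in 2 libraries each. They include TRAV12D-2 TRAJ48 no. 1 (16.2% in combination D11 replicate 1 and 2.06% in combination D4 replicate 3) and TRAV9N-3 TRAJ27 no. 1 (4.998% and 1.83% in trametinib D4 replicates 1 and 3), each within a treatment. TRAV8N-2 TRAJ23 no. 2 took 1.38% in combination D11 replicate 3 and 3.07% in trametinib D4 replicate 2. TRAV7D-2 TRAJ9 no. 5 took 1.23% and 1.13% in BGB-283 D4 replicates 1 and 3.

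A single loop of 14 residues joined to TRAJ15 recurred under 2 unlike V names. As TRAV5D-4V5N-4 TRAJ15 no. 2 it took 1.36% in combination D11 replicate 1 and 2.64% in trametinib D11 replicate 3, and as TRAV10 TRAJ15 it took 1.22% in combination D11 replicate 1 and 1.11% in BGB-283 D4 replicate 3. In all, 11 pairs of large clonotypes had the same CDR3 and J segment under 2 V names, 8 of them within a family and 5 with their highest share in the same library. TRAV14-2V14N-2 TRAJ42, for example, took 46.3% of BGB-283 D4 replicate 2, where the same loop under TRAV14D-2 took 2.58%. Of the 293 large clonotypes, 93 carry a joint V name of copies that were not separated, so their exact V gene is uncertain. In the library where it peaked, 271 of the 293 had at least 1 clonotype of lower counts with the same segments and a single different residue. There were 2237 of these, and up to 41 beside a single clonotype. Summed beside each large clonotype, their counts came to a median of 1.91% of its counts.

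**Figure D3:**
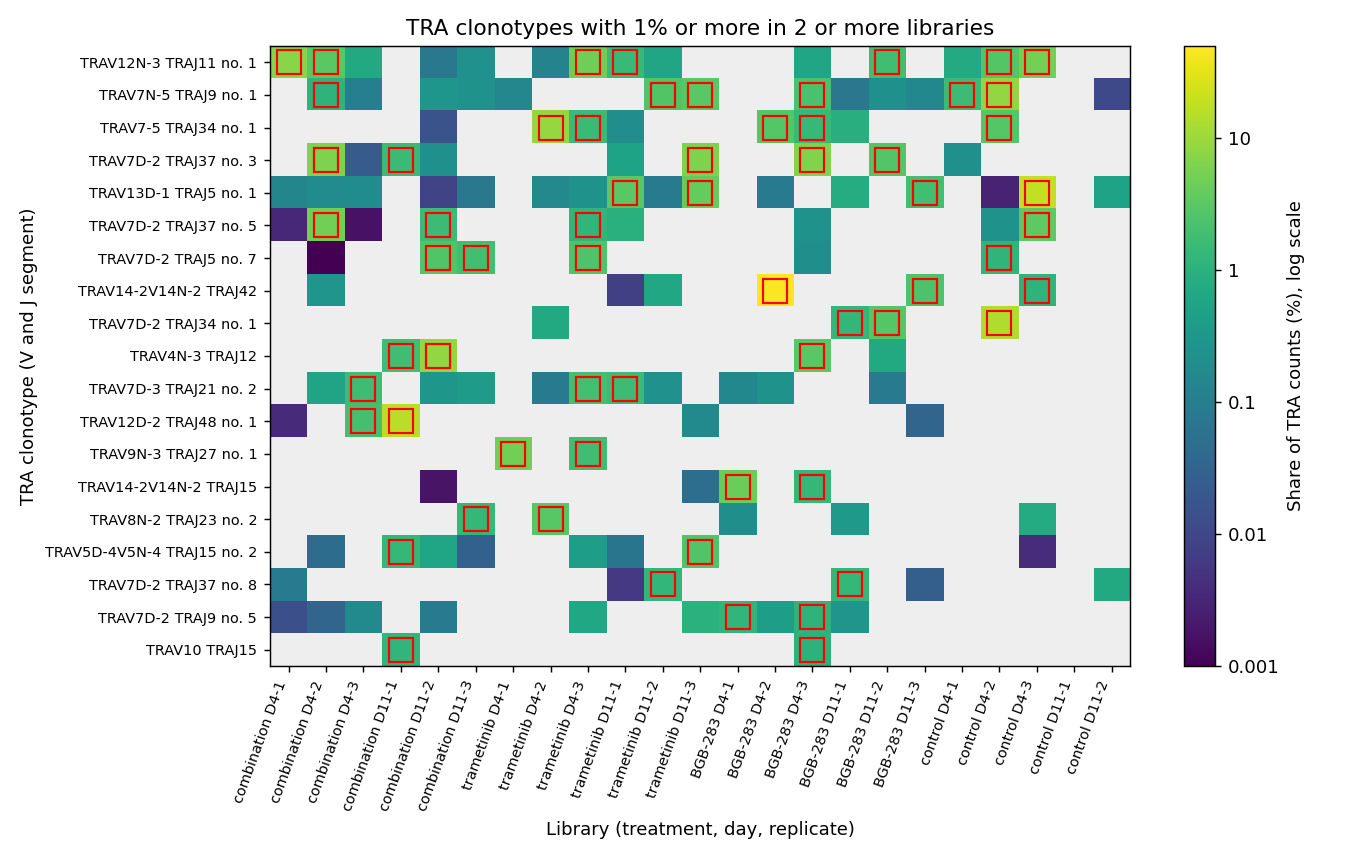
Share of TRA counts (%, colour on a log scale) of the 19 TRA clonotypes with 1% or more in 2 or more libraries (down the page) in each of the 23 libraries (across, combination, trametinib, BGB-283 and control). Red squares mark shares of 1% or more and grey cells are listed at 0; TRAV12N-3 TRAJ11 no. 1, in the top line, has 7 red squares.

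The clonotype listed in the most libraries was the canonical iNKT alpha chain, TRAV11N TRAJ18, with a CDR3 of 15 residues. It was listed in 20 of 23 libraries but reached 1% in a single one, trametinib D11 replicate 2, at 1.57%. Its share lay between 0.299% and 0.974% in the 6 combination libraries, between 0.172% and 1.57% in the 6 trametinib libraries and between 0.0766% and 0.622% in the 6 BGB-283 libraries. Among control libraries it took 0.209% in D4 replicate 2 and 0.163% in D11 replicate 2 and was listed at 0 in the other 3. No large clonotype had the MAIT combination of TRAV1 and TRAJ33. The fifth most widely listed was TRAV9N-2 TRAJ37 no. 1, in 12 libraries, which took 2.92% in trametinib D4 replicate 3 and under 1% in the other 11.

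Large TRA and TRB clonotypes were compared in the same libraries, since both chains came from a single RNA sample. Large TRA clonotypes summed to a higher share than large TRB clonotypes in 19 of 23 libraries, and were more numerous in 17 of 23, with equal numbers in 1. The largest TRA clonotype exceeded the largest TRB clonotype in 7 of 23 libraries. Summed shares averaged 52.5% ± 12.7 for TRA and 47.5% ± 15.3 for TRB (SD, n = 23).

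Since these TRA values are the ones the 1% limit selects on, their relation to TRB across the 23 libraries is given as a description with no test. For summed shares Pearson's r was 0.915 and Spearman's rho 0.894. On values centred on their treatment and day r was 0.815, and without the libraries farthest from the median, trametinib D11 replicates 2 and 3, it was 0.855. These 2 libraries had the smallest sums of both chains, 25.5% and 28.6% for TRA and 14.8% and 17.4% for TRB.

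For the numbers of large clonotypes r was 0.670 and rho 0.644. Centred on groups r was 0.563, and without trametinib D4 replicate 1 and D11 replicate 3 it was 0.640. With a limit of 2% in place of 1%, r of the numbers was 0.304, and 0.227 when centred on groups.

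For the largest shares r was 0.753 and rho 0.532, and r centred on groups was 0.729. Without BGB-283 D4 replicate 2 and combination D11 replicate 3, the libraries farthest from the median, r was 0.389. Without BGB-283 D4 replicate 2 alone it was 0.491.

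**Figure D4:**
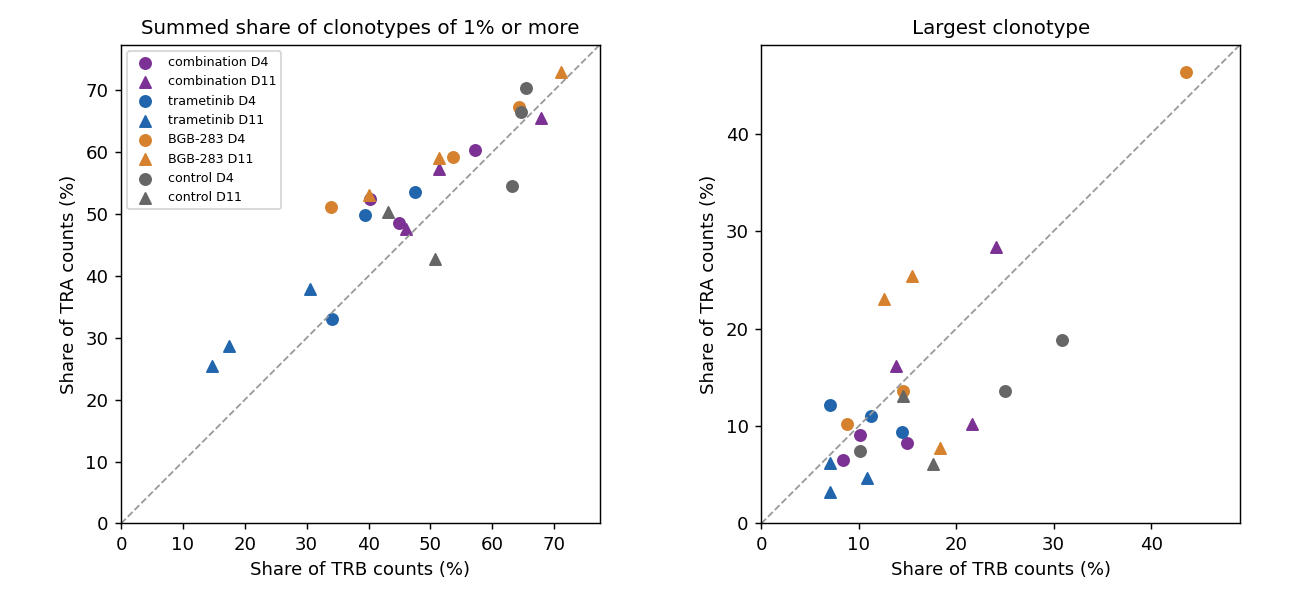
Summed share of clonotypes of 1% or more (left) and share of the largest clonotype (right), TRA (vertical axis) against TRB (horizontal axis), in % of the counts of each chain. Each point is a library, colours are treatments, circles are D4 and triangles D11, and the dashed line marks equal shares. Summed shares lie above the line in 19 of 23 libraries, and largest shares in 7 of 23. The largest shares of BGB-283 D4 replicate 2 stand apart, at 46.3% for TRA and 43.6% for TRB.

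In BGB-283 D4 replicate 2 the leading chains had similar shares. TRAV14-2V14N-2 TRAJ42 took 46.3% of TRA counts and TRBV16 TRBJ2-3 took 43.6% of TRB counts. The same TRA and TRB clonotypes took 2.43% and 2.34% in BGB-283 D11 replicate 3, and the TRB clonotype was listed in no other library. The TRA clonotype was also listed in 4 more libraries, at 0.286% in combination D4 replicate 2, 0.00775% and 0.646% in trametinib D11 replicates 1 and 2, and 1.14% in control D4 replicate 3.

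Libraries in which recurrent TRA clonotypes reached 1% were set against those of the 14 recurrent TRB clonotypes, 266 pairs in all, and 15 pairs had 2 or more such libraries in common. This comparison was added after the data were seen and is a description. TRAV4N-3 TRAJ12 and TRBV3 TRBJ2-7 reached 1% in the same 3 libraries. They took 1.78% and 4.51% in replicate 1 of combination D11, 8.54% and 21.6% in replicate 2 of that group, and 3.08% and 12.99% in BGB-283 D4 replicate 3. The ratio of TRA to TRB share was 0.395 in both combination libraries and 0.237 in the BGB-283 library, and this TRB clonotype was listed in those 3 libraries alone. The TRA clonotype was also listed in BGB-283 D11 replicate 2, at 0.711%, where the TRB clonotype was listed at 0.

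TRAV14-2V14N-2 TRAJ15 took 4.49% and 1.34% in BGB-283 D4 replicates 1 and 3. A 15-residue TRBV16 TRBJ2-3 clonotype took 5.70% and 1.64% of TRB counts in the same libraries, at ratios of TRA to TRB share of 0.788 and 0.818. TRAV7D-2 TRAJ9 no. 5 reached 1% in the same 2 libraries, at ratios to that TRB clonotype of 0.215 and 0.687. TRAV12N-3 TRAJ11 no. 1, by contrast, shared 2 libraries with each of 4 TRB clonotypes, at ratios between 0.113 and 3.62. With bulk RNA, chains of 1 cell are not read together, so no pairing of chains was measured.

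Mean CDR3 length and listing in another library were compared between treatments for large clonotypes. Exact two-sided permutation tests within days were adjusted over 6 contrasts. The 1% limit does not use length. Listing elsewhere also counts clonotypes that reached 1% elsewhere, and its values are not independent between libraries. Control had 5 libraries against 6 for each drug treatment, and its D11 replicate 1 had the fewest TRA counts. Another run left out the 2 libraries of fewest TRA counts, control D4 replicate 1 and D11 replicate 1. In it listing elsewhere differed from control by 25.3 points in trametinib, 12.3 in combination and 11.1 in BGB-283 libraries. That run leaves a single control library at D11. The effect of the smaller number of control libraries on listing elsewhere was not tested. The share of large clonotypes listed in another library averaged 48.0% ± 12.2 in combination (SD, n = 6), 61.0% ± 16.5 in trametinib (SD, n = 6), 46.8% ± 15.5 in BGB-283 (SD, n = 6) and 38.3% ± 10.9 in control libraries (SD, n = 5). By library it was 40%, 38.9% and 41.2% in combination at D4 and 46.7%, 71.4% and 50% at D11. In trametinib libraries it was 33.3%, 64.3% and 68.4% at D4 and 72.2%, 50% and 77.8% at D11. In BGB-283 libraries it was 20%, 45.5% and 55% at D4 and 50%, 66.7% and 43.8% at D11. In control libraries it was 42.9%, 52.9% and 40% at D4 and 30.8% and 25% at D11. At D11 each library of the 3 drug treatments lay above both control libraries, and at D4 all 4 treatments overlapped.

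Trametinib differed from control by 24.4 percentage points (unadjusted p = 0.04, adjusted p = 0.24, exact permutation test), with 38.8 points at D11 and 10.1 points at D4. Combination against control was 11.5 points (adjusted p = 0.395), BGB-283 against control 10.2 points (adjusted p = 0.395), and combination against trametinib -12.98 points (adjusted p = 0.395, exact permutation test for each). Combination against BGB-283 (1.21 points, adjusted p = 0.86) and D11 against D4 (5.82 points, adjusted p = 0.395) did not pass either (exact permutation tests). The difference between combination and control was 28.1 points at D11 and -5.24 points at D4, and the change between days did not pass (unadjusted p = 0.015, adjusted p = 0.075 over 5 contrasts, exact permutation test). These contrasts of combination, trametinib and BGB-283 share the control libraries.

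Mean CDR3 length of large clonotypes was 13.7 ± 0.511 residues in combination (SD, n = 6), 13.6 ± 0.193 in trametinib (SD, n = 6), 13.6 ± 0.394 in BGB-283 (SD, n = 6) and 13.5 ± 0.351 in control libraries (SD, n = 5). No contrast of length passed, with differences of -0.147 residues for D11 against D4 to 0.261 residues for combination against control (adjusted p = 0.678 to 0.715, exact permutation tests). The libraries of all 4 treatments overlapped in mean length.

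Just inside the 1% limit lay TRAV6-6V6D-6 TRAJ24 and TRAV16D/DV11V16N TRAJ24, both at 1.01%, and TRAV7D-2 TRAJ37 no. 11 at 1.02%. Just outside it lay TRAV7N-4 TRAJ6 at 0.993%, the 15-residue TRAV16D/DV11V16N TRAJ30 at 0.989% and TRAV13D-1 TRAJ37 at 0.985%. With a limit of 0.5% the set would hold 538 TRA clonotypes, and with 2% it would hold 159.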

How the data were processed

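The deposited values are counts, whole numbers not scaled between libraries, for each chain, V name, J name and set of CDR3 residues. Per the labels, AllPrep (QIAGEN) and mirVana (Ambion) kits gave the RNA, and the QIAseq Immune Repertoire RNA kit the libraries. GRCh38, a human build, appears in the submitters' processing notes although the libraries are of mouse. Which aligner and filters were used was not given in the sources used here. Both TRA and TRB clonotypes are in the table, and gamma and delta chains were not analysed here.

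Entries with an unresolved residue, 274 in all (0.0227% of counts, 92 of them TRA and none above 0.0138% of a library), were left out. Shares were taken over the TRA or TRB counts of each library. The set and the lists were chosen with earlier results of these data known. Each library gave 1 value for large clonotypes and 1 for its other clonotypes, and tests were random sign changes over libraries or exact permutations within strata, with 100000 resamples where not exact and a threshold of 0.05. Net charge counts lysine and arginine minus aspartate and glutamate, and hydropathy leaves out 3 residues at each end. Tools were Python 3.11.15, numpy 2.4.6, pandas 2.3.3, scipy 1.17.1 and matplotlib 3.10.9.

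Named clonotypes were the largest TRA and TRB of a library, those of 1% or more in 2 or more libraries, the 5 listed in the most libraries, the 3 nearest each side of the limit and TRAV11 with TRAJ18; named segments were those past the threshold and the 5 with the most members. The set of 11 TRAV7D-2 TRAJ37 loops, the named TRAJ5, TRAJ22 and TRAV3 clonotypes and the TRB partners were named after their values were seen. Clonotypes are named by their segments and loop length, and residues are not printed here. Permutation tests of the relation between TRA and TRB values were planned, but the TRA values are those of the rule and no p is given. The test of segments, tried on simulated data, called rare segments in error, and those with under 5 expected large clonotypes are not read. Same-number libraries correlated in V use from -0.309 to 0.272, and 0 of 28 group pairs had all such correlations over 0.1, so replicate numbers paired nothing. Alternatives were limits of 0.5% and 2%, estimated molecules, summed V names, entries not starting with C left out, counts under 20 set to 0, weighting by counts, a replicate block and each library left out in turn. Added after the data were seen were runs without recurrent clonotypes, without the 2 libraries of fewest TRA counts and with the limit on expected numbers.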

Additional observations from a re-analysis of the deposited data

Results flagged for a closer look

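In 28 groups and measures of the large TRA clonotypes that could be examined for a library far from the others of its group, 2 libraries stood apart, and chance gives about 1 in 20. Large clonotypes of BGB-283 D11 replicate 2 had a mean CDR3 length of 12.8 residues, below the other 5 BGB-283 libraries, which lay between 13.5 and 13.9. In combination D11 replicate 2, 71.4% of large clonotypes were listed in another library, above the other 5 combination libraries, which lay between 38.9% and 50%.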

How the results depend on the processing

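The excess of large over other clonotypes listed in another library, 29.5 points, passed the threshold under every alternative run (18.5 to 30.8 points, and 27.4 to 30.6 with 1 library left out), and TRAV3 and TRAJ22 stayed lower. With a 0.5% limit there were 538 large clonotypes; their number averaged 25.8 in combination, 27.5 in trametinib, 22.7 in BGB-283 and 33.8 in control libraries, and their sum 63.0% in combination and 69.4% in control libraries. With a 2% limit there were 159; their number averaged 8.5, 6.83, 7.83 and 8 in combination, trametinib, BGB-283 and control libraries, with sums of 45.7% in combination and 51.1% in BGB-283. Also at 2%, glycine (0.0519) and TRAJ number (-3.495) missed the threshold, and r of TRA and TRB numbers was 0.304. Centred on groups, r of numbers was 0.510 with V names summed, 0.507 without recurrent clonotypes and 0.534 without the 2 libraries of fewest TRA counts, against 0.563. Differences that had not passed changed sign at 2%: length -0.0062, hydropathy 0.0491, net charge -0.0416, length of trametinib (-0.168) and BGB-283 (-0.0576) against control, and listing elsewhere of combination against control (-0.920) and against BGB-283 (-8.29). The last of these was also below 0 at 0.5% (-0.562), with V names summed (-1.85) and with counts under 20 set to 0 (-1.39). Glycine missed the threshold in estimated molecules (0.0950), with V names summed (0.0922), weighted by counts (0.0638), without recurrent clonotypes (0.0776) and without the 2 libraries of fewest TRA counts (0.0968). TRAJ number missed it weighted by counts (-2.45) and without recurrent clonotypes (-2.29). Length turned negative with V names summed (-0.0106), weighted by counts (-0.0925) and without the 2 libraries of fewest counts (-0.0132), and hydropathy turned positive weighted by counts (0.00954). The cause was not tested.

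TRAJ segments past the threshold, 11 over all segments, were 6 in estimated molecules and 5 without recurrent clonotypes. With 5 or more expected large clonotypes, 2 TRAV families were called in place of 7 and 2 TRAJ segments in place of 11. TRAJ31, TRAJ49 and TRAJ37 were tested both ways. Their adjusted p was 0.0431, 0.0431 and 0.0464 over all segments and 0.0553, 0.0553 and 0.0623 with the limit (permutation tests). The other segments that lost their call had under 5 expected and were not tested with the limit. Without recurrent clonotypes the number in combination libraries averaged 12.3, and sums averaged 44.5% in combination, 46.1% in BGB-283 and 45.1% in control libraries, by construction lower. With each library left out in turn, length ran from -0.0228 to 0.0434, glycine from 0.0867 to 0.123 and the TRAJ segments called from 6 to 13. In the contrasts of length, trametinib against control ran from -0.0840 to 0.297, BGB-283 against control from -0.0968 to 0.285, combination against trametinib from -0.0524 to 0.285 and combination against BGB-283 from -0.0397 to 0.298. Listing elsewhere ran from -3.82 to 9.51 points for combination against BGB-283. With the replicate number as a block no call of the 10 contrasts changed, for example 19.3 points for trametinib against control in listing elsewhere (adjusted p = 0.625, exact permutation test). With 9 to 21 large clonotypes in a library, a change of 1 clonotype moves a library's percentage by several points.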
